A study of Mus musculus with 15 samples.

Results

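The interferon regulatory factor family was followed through RNA-seq of 15 mouse colons. Its members were taken by symbol, Irf and a digit, and 8 are reported, of the 12897 genes found in any of the 3 deposited tables. All 8 were in all 3 tables, which share 12370 genes. Each group held 3 libraries, taken here as 3 mice, and all mice were labelled C57BL/6 (B6), given as C57BL/6J in the study's methods. The groups were untreated wildtype mice tabulated apart as control set 1 and control set 2, wildtype mice at D26 of AOM/DSS treatment, untreated Irf1-/- mutants, and Irf1-/- mutants at D26. Treated mice had received AOM, an alkylating carcinogen, at 7 mg/kg on D1 and, between D8 and D11, 2% DSS in their water, an agent toxic to colonic epithelium. Distal colon was homogenized whole. The labels give neither the ages of the mice nor the exons removed by the Irf1 mutation, and a count per gene does not show from which exons its reads came.

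IRF proteins share a DNA-binding domain that recognizes GAAA repeats in the promoters of interferon-inducible genes. IRF1 activates such genes and IRF2 competes for the same sites. IRF3 and IRF7 are activated downstream of sensors of foreign nucleic acid and switch on type I interferon genes, while IRF9 joins STAT proteins in the ISGF3 complex that carries the interferon signal to the nucleus. IRF4, IRF5 and IRF8 act mainly in lymphoid and myeloid cells.

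Promoter letters are shown for Irf1 and Irf7, the members whose levels differed between genotypes, and for Irf2, the antagonist of IRF1. The RefSeq promoter table (GRCm38.p6) held all 8 members in 11 windows, each reaching from 250 bases before a start site to 50 after it. Both strands were searched for GAAANNGAAA, the core of the interferon-stimulated response element bound by ISGF3 and IRFs, and for TTCNNNGAA, the gamma-activated site bound by STAT proteins. These letters stood in 3.44% and 8.30% of all 32851 windows of this length. The 250 bases before the start site are given 5′ to 3′ on the strand of the gene, with matches in capitals: chr11:53769764-53770013, plus strand, for Irf1 (the first of its windows), chr7:141266425-141266674, minus strand, for Irf7, and chr8:46739495-46739744, plus strand, for Irf2.
Irf1: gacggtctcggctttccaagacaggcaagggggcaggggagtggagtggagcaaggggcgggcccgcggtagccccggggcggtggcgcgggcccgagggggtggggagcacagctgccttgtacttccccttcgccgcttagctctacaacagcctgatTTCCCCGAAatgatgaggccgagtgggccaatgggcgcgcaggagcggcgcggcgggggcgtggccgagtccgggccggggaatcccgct
Irf7: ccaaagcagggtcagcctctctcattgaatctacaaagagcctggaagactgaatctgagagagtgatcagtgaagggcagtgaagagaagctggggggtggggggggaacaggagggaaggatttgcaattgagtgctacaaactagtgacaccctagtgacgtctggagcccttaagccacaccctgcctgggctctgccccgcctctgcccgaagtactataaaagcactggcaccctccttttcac
Irf2: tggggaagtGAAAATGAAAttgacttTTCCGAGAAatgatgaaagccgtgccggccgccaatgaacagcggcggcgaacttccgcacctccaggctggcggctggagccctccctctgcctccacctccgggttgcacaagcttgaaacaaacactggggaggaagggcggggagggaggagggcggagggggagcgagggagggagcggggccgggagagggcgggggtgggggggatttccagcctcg
The Irf1 window held a gamma-activated site, ttccccgaa, beginning 90 bases before the start site. The Irf2 window held the response element gaaaatgaaa at 241 bases and a gamma-activated site at 224 bases before the start. The Irf8 window held a pair of gamma-activated sites, at 171 and 153 bases before its start, and no other member window held a match to either motif. The count tables were made on mm9 per the labels, so these positions belong to the promoter table alone. A match is a description of the letters and says nothing of binding.

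Library totals lay between 22266607 and 22869853 counted reads, and members had from 172 reads (Irf4) to 5188 reads (Irf1) in a library. Over all genes together, libraries of the same group differed from each other by a chi-square of 8.65 to 42.7 per degree of freedom, where counting error alone would give a value near 1. The spread between libraries thus exceeded counting error over the genes as a whole. This value was not computed for the members alone, and it does not show the spread of any 1 member. All 15 colon epithelial and all 10 smooth muscle markers on the lists were in every table. The libraries were not alike in every respect. Xist, which is transcribed from the inactive X chromosome, stood at 25.2 and 5.97 CPM (reads scaled to the library total and by TMM) in treated B6 replicates 1 and 2 and at 11.6 CPM in treated Irf1-/- replicate 1, against 321 to 3729 CPM in the other 12 libraries. The 3 treated B6 libraries also had higher levels of GC-rich genes, with slopes of 0.136 to 0.279 log2 units per 10% GC against -0.123 to 0.0306 in the other 12. Some of the results are also given with a correction for GC content or with log2 Xist as a covariate.

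The members were present at very different levels in the untreated B6 colon. Scaled per kilobase of exon, the mean level of the 6 untreated B6 mice was 42.9 ± 3.93 CPM per kb for Irf1 (SD, n = 6), the highest of the 8. Irf3 followed at 25.7 ± 0.985, Irf2 at 18.5 ± 2.72, Irf8 at 15.9 ± 2.04, Irf7 at 11.8 ± 0.697 and Irf9 at 10.1 ± 0.734 CPM per kb. The lowest were Irf5, at 4.44 ± 1.31, and Irf4, at 3.07 ± 1.43 CPM per kb. The ranges of the mice overlapped between Irf2 and Irf8, between Irf7 and Irf9, and between Irf5 and Irf4. The order of these neighbours within single libraries was not compared. In treated B6 colons the mean of Irf1 was 62.3 ± 8.96 CPM per kb (n = 3), and Irf7 reached 26.3 ± 7.85. Irf4 and Irf5 act mainly in leukocytes, and in whole colon fewer cells of a type and less RNA per cell cannot be told apart.

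**Figure D1:**
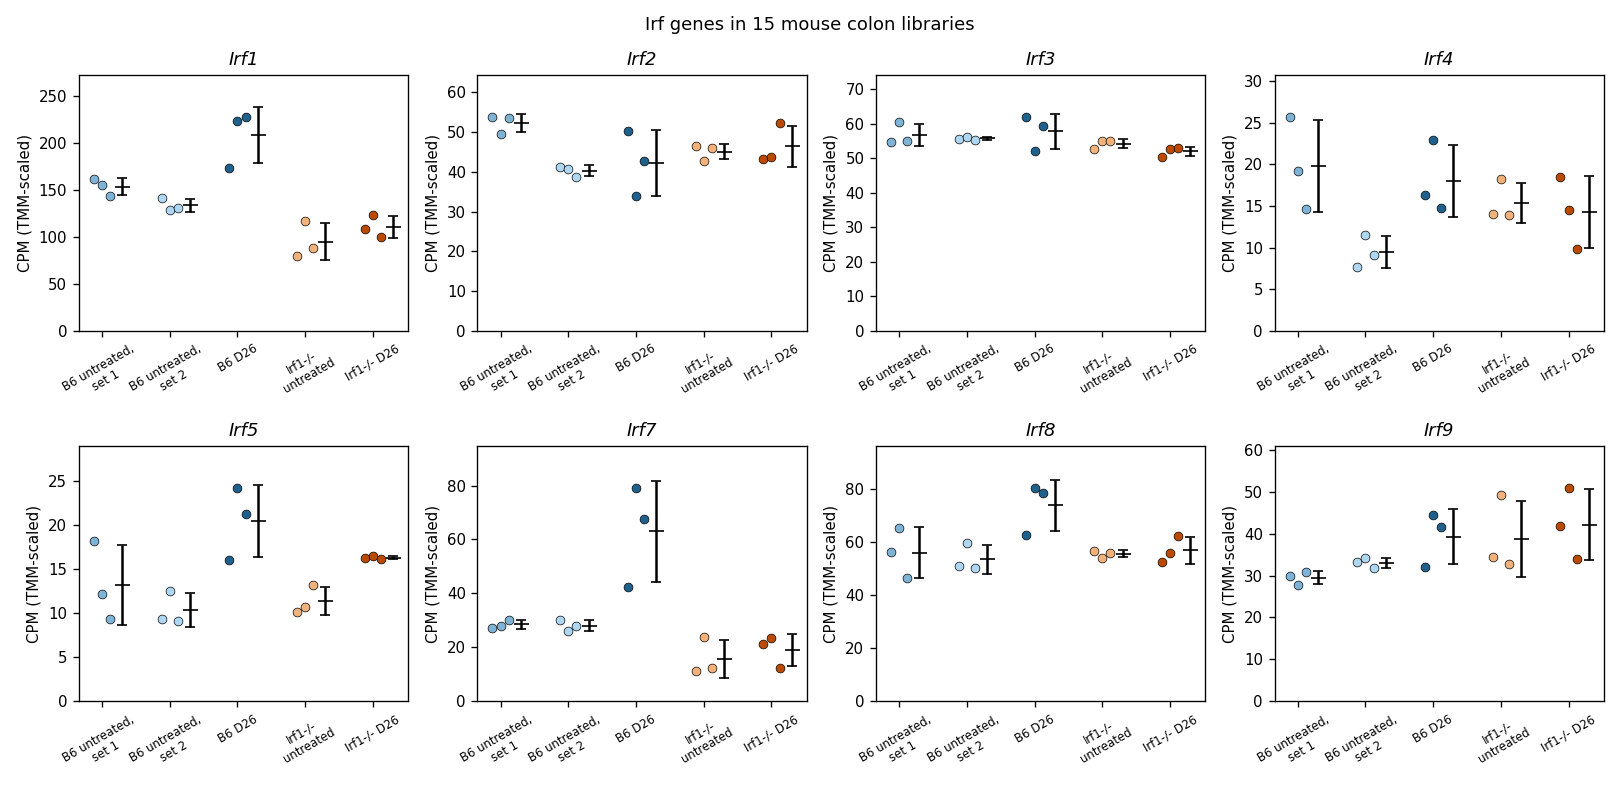
Level of each Irf gene (CPM, linear axis from 0) in the 3 libraries of each of 5 groups. Points are libraries and bars are mean ± SD of 3 mice. Irf1 and Irf7 are lower in all Irf1-/- libraries than in all B6 libraries. The means of Irf1, Irf5, Irf7, Irf8 and Irf9 are higher at D26 in both genotypes, and Irf3 stays within a narrow range.

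Irf1, the disrupted gene and the activator of the pair with Irf2, was read first, as a check of the labels. Its levels were 161, 155 and 144 CPM in control set 1, 141, 128 and 130 CPM in control set 2 and 173, 223 and 227 CPM in treated B6 colons. The untreated Irf1-/- colons had 79.4, 117 and 87.6 CPM and the treated ones 108, 123 and 100 CPM. The order by group mean was treated B6, control set 1, control set 2, treated Irf1-/- and untreated Irf1-/-, and only the mutant groups overlapped. The highest Irf1-/- library thus stood below the lowest B6 library. Groups without overlap were common over 12370 genes, at 15.5% between untreated mutants and control set 2 and 34.6% between treated B6 and control set 1. Irf1 reads remained in the mutants, at a mean of 71.1% of control set 2 and 61.7% of control set 1 in untreated and 53.2% of B6 in treated mice.

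Irf7, which drives the amplification of type I interferon, followed the same order of genotypes with a larger spread. It stood at 27.3, 27.9 and 30.3 CPM in control set 1 and at 30.2, 26.0 and 27.9 CPM in control set 2. Treated B6 colons had 42.3, 79.0 and 67.7 CPM, untreated Irf1-/- colons 11.1, 23.7 and 12.3 CPM and treated Irf1-/- colons 21.4, 23.3 and 12.2 CPM. The control sets overlapped, every treated B6 library was above them, and every Irf1-/- library was below them. Replicate 2 of the untreated mutants had the highest Irf7 and Irf1 of its group, and replicate 3 of the treated mutants the lowest Irf7 and Irf1 of its group.

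The genotype was compared over both states with all 15 libraries, 6 of Irf1-/- and 9 of B6 mice. A gene was called when its fold change reached 1.5 and its adjusted p was below 0.01, from the quasi-likelihood test of edgeR, adjusted by Benjamini-Hochberg over all genes tested. Of 12370 genes, 110 were called (0.889%), 89 of them lower in the mutants. Of the 8 members, 2 were called, both lower. Irf1 is the disrupted gene, so its call reads out the design, and Irf7 is the only other member called. Irf1 had a log2 FC of -0.75 (SE 0.088, adjusted p = 6.92e-05) and Irf7 of -1.29 (SE 0.19, adjusted p = 0.000487). In these same genes all 6 Irf1-/- libraries were below all 9 B6 libraries, as in 108 of 12370 genes (0.873%). Both remained called in all 10 alternative fits and with each mouse left out, with log2 FC of -0.85 to -0.70 for Irf1 and -1.51 to -1.17 for Irf7 when a mouse was left out. With the GC correction they stood at -0.71 and -1.23, and with log2 Xist as a covariate at -0.76 and -1.28. The other 6 members had log2 FC between -0.18 (Irf5 and Irf8) and 0.21 (Irf9). Among these 6, Irf3 (-0.10) and Irf8 had an unadjusted p under 0.05 but adjusted p of 0.16 and 0.163.

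Within either state alone the same direction was seen for Irf1 and Irf7, with fewer mice behind it. In untreated mutants against control set 2, 0 of 8 members were called by edgeR beside 51 of 12588 genes (0.405%), 4 members had an unadjusted p under 0.05 beside 1313 genes, and DESeq2 called 1 member, Irf4. The share of all genes called by DESeq2 is not given here or below, and the edgeR shares are no background for its calls. Irf1 had a log2 FC of -0.49 (SE 0.12, adjusted p = 0.128) and Irf7 of -0.84 (SE 0.24, adjusted p = 0.183). Replicate 2 of the untreated mutants decided these calls: without it, Irf1 stood at -0.68 (adjusted p = 0.00918) and Irf7 at -1.27 (adjusted p = 0.002). With control set 1 as controls, Irf1 was called at -0.70 (adjusted p = 0.0099).

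Among treated mice, Irf1-/- against B6, 0 of 8 members were called by edgeR beside 48 of 12483 genes (0.385%). At an unadjusted p under 0.05 there were 4 members, beside 2748 genes, and DESeq2 called 2, Irf1 and Irf7. The log2 FC of Irf1 was -0.93 (SE 0.13, adjusted p = 0.0117) and that of Irf7 was -1.75 (SE 0.27, adjusted p = 0.0197). Treated B6 replicate 1, the lowest of its group for both genes and 1 of the libraries with little Xist, decided the call: without it the values were -1.03 (adjusted p = 0.00551) and -1.96 (adjusted p = 0.0087). With the GC correction Irf1 stood at -0.83 (adjusted p = 0.0282) and Irf7 at -1.61 (adjusted p = 0.0483), and with log2 Xist as a covariate at -0.95 (adjusted p = 0.0151) and -1.73 (adjusted p = 0.0254). Irf8 and Irf5, the other members with an unadjusted p under 0.05, had log2 FC of -0.39 (SE 0.11, adjusted p = 0.102) and -0.35 (SE 0.15, adjusted p = 0.223). The value of Irf5 moved to -0.21 with the GC correction (adjusted p = 0.613) and to -0.20 without treated B6 replicate 2 (adjusted p = 0.437). For Irf8 the treated B6 libraries at 62.6, 80.1 and 78.4 CPM stood just above the treated mutants at 52.2, 55.9 and 62.2 CPM. Treated libraries of the genotypes did not overlap in 3421 of 12370 genes (27.7%).

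**Figure D2:**
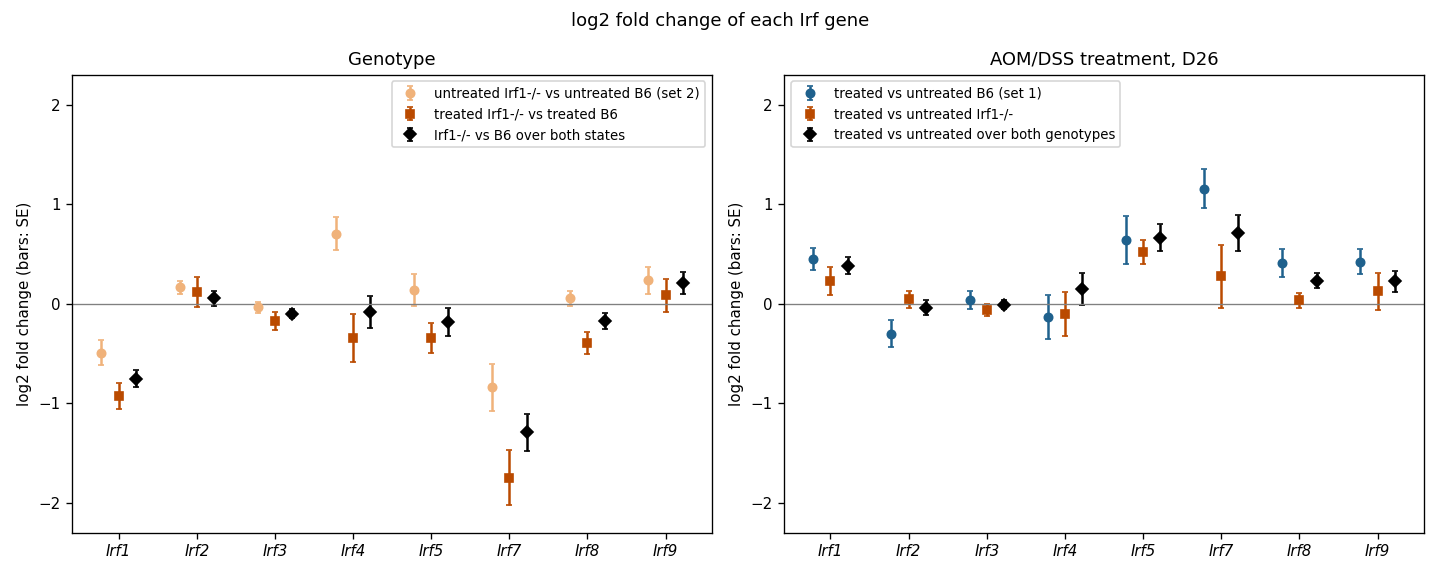
Fold change of each Irf gene (log2, bars are standard errors) between genotypes on the left and between treated and untreated mice on the right. Irf1 and Irf7 lie below 0 in all 3 genotype comparisons (-1.29 for Irf7 over both states). Irf5 lies above 0 in all 3 treatment comparisons (0.66 over both genotypes), as do Irf1, Irf7, Irf8 and Irf9.

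Treatment was likewise compared over both genotypes, and 1 member was called among 203 of 12370 genes (1.64%), 145 of them higher. This was Irf5, which acts downstream of Toll-like receptors in macrophages and induces inflammatory cytokines. Irf5 stood at 18.1, 12.1 and 9.32 CPM in control set 1, at 9.33, 12.5 and 9.11 CPM in control set 2 and at 10.1, 10.7 and 13.2 CPM in untreated mutants. At D26 it was 16.0, 24.1 and 21.2 CPM in B6 mice and 16.2, 16.5 and 16.1 CPM in mutants. All 6 treated libraries were above 8 of the 9 untreated ones, the exception being control set 1 replicate 1.

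The log2 FC of Irf5 over both genotypes was 0.66 (SE 0.14, adjusted p = 0.00341). It was 0.64 (SE 0.24, adjusted p = 0.118) in B6 and 0.52 (SE 0.12, adjusted p = 0.065) in mutant mice taken alone. The Irf5 transcript has a GC content of 55.7%, above that of 81.8% of genes. It shares this with Irf7 (55.4%, above 80.4% of genes) and Irf3 (56.7%, above 86.1%). The call was lost with the correction for GC content, at 0.58 (adjusted p = 0.0118), with log2 Xist as a covariate, at 0.66 (adjusted p = 0.0243), with control set 1 alone, at 0.58 (adjusted p = 0.0202), and without replicate 1 or 2 of the untreated mutants, at 0.63 (adjusted p = 0.0119) and 0.65 (adjusted p = 0.0112). Markers of macrophages and dendritic cells moved with it. Of 16 names on that list 12 were measured. Of these 12, 4 were called higher with treatment (Lyz2, Cybb, Tyrobp and Ccr2), beside 1.64% of all genes called. The median log2 FC of the 12 was 0.54. Their summed level was 443 to 576 CPM in control set 1, 396 to 459 in control set 2 and 382 to 458 in untreated mutants, against 572 to 754 CPM in treated B6 and 589 to 636 in treated mutants. In B6 or mutant mice taken alone, 0 of 13 measured macrophage and dendritic cell markers were called. Other cell types also held genes called with treatment over both genotypes. These were 1 higher of 2 T and NK cell markers, and 1 higher and 1 lower of 15 colon epithelial markers. The part of any of these cells in the Irf5 value was not tested.

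Other members also had small p in the treatment contrast over both genotypes. An unadjusted p under 0.05 was found for 5 of 8 members, beside 4752 of 12370 genes, and DESeq2 called 2 members, Irf5 and Irf7. Irf7 had a log2 FC of 0.71 (SE 0.18, adjusted p = 0.0104), just past the limit, and Irf1 of 0.38 (SE 0.086, adjusted p = 0.00555), below the required fold. With the GC correction they stood at 0.63 (adjusted p = 0.034) and 0.33 (adjusted p = 0.0221), and with log2 Xist as a covariate at 0.69 (adjusted p = 0.0563) and 0.42 (adjusted p = 0.0223). Irf7 was called without treated B6 replicate 1 (0.83), untreated mutant replicate 2 (0.93) or treated mutant replicate 3 (0.83). Irf8, a factor of dendritic cells and monocytes, stood at 0.23 (adjusted p = 0.0428) and Irf9 at 0.23 (adjusted p = 0.129). Irf4, Irf2 and Irf3 had log2 FC of 0.14, -0.04 and -0.01, and Irf4 turned to -0.12 with control set 1 alone.

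In B6 mice alone, treated against control set 1, edgeR called 0 of 8 members beside 6 of 12643 genes (0.0475%). An unadjusted p under 0.05 was found for 6 members, beside 3730 genes, and DESeq2 called 1, Irf7. The log2 FC of Irf7 was 1.15 (SE 0.20, adjusted p = 0.0198), and it was called at 1.37 (adjusted p = 0.00182) without treated B6 replicate 1. Irf1 had a log2 FC of 0.45 (adjusted p = 0.0449), Irf9 of 0.42 (adjusted p = 0.0667), Irf8 of 0.41 (adjusted p = 0.0942) and Irf2 of -0.30 (adjusted p = 0.169). Irf2 moved to -0.16 without treated B6 replicate 2 and turned to 0.083 against control set 2. With the GC correction Irf7 stood at 1.00 (adjusted p = 0.0617) and Irf1 at 0.35 (adjusted p = 0.145), and with log2 Xist as a covariate at 1.16 (adjusted p = 0.0723) and 0.49 (adjusted p = 0.111).

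In Irf1-/- mice, treated against untreated, edgeR called 0 of 8 members beside 32 of 12692 genes (0.252%), 1 member, Irf5, had an unadjusted p under 0.05 beside 2361 genes, and DESeq2 called 0. The log2 FC was 0.28 for Irf7 (SE 0.32, adjusted p = 0.706), 0.23 for Irf1 (SE 0.14, adjusted p = 0.437), 0.12 for Irf9 and 0.04 for Irf8. Without untreated mutant replicate 2 the values of Irf7 and Irf1 were 0.70 and 0.41, and without treated mutant replicate 2 that of Irf9 was -0.039. The difference between the responses of mutant and B6 mice was tested itself. It was -0.87 for Irf7 (SE 0.42, adjusted p = 0.31), -0.37 for Irf8 (SE 0.17, adjusted p = 0.299) and -0.22 for Irf1 (SE 0.20, adjusted p = 0.616). For Irf2 the difference was 0.35 (SE 0.17, adjusted p = 0.318), and -0.027 to 0.36 over the alternative fits. Without untreated mutant replicate 2 it was -0.45 for Irf7 and -0.042 for Irf1, and with the GC correction -0.76 and -0.14. By edgeR 0 of 8 members were called beside 2 of 12483 genes (0.016%), 0 members had an unadjusted p under 0.05 beside 2108 genes, and DESeq2 called 0. A difference between the responses was thus not shown for any member. The comparisons share libraries, the treated B6 and untreated mutant ones above all, and their values are not independent of each other.

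Irf9, the DNA-binding subunit of ISGF3, was not called between genotypes over both states (edgeR, log2 FC 0.21, SE 0.11, adjusted p = 0.223). In untreated mutants Irf9 stood at 0.21 to 0.39 over the alternative fits and 0.022 to 0.34 with 1 mouse left out, with 0 calls. It ranged from 27.8 to 34.1 CPM in the 6 untreated B6 libraries and stood at 32.0, 44.4 and 41.5 CPM in treated B6, 34.5, 49.2 and 32.7 CPM in untreated mutant and 41.8, 50.8 and 33.9 CPM in treated mutant colons. In each of these 3 groups the library with the most Irf9 also had the most Irf7, as did replicate 3 of control set 1. In control set 2, replicate 2 had the most Irf9 (34.1 CPM) and the least Irf7 (26.0 CPM). After subtracting group means, the log2 levels of Irf9 had a Pearson r of 0.94 with Irf7 and of 0.86 with Irf1 over the 15 libraries, while over the libraries as they stand r was 0.21 and 0.06. These correlations are descriptions over libraries. Stat2, a partner of IRF9, stood at 46.6 to 47.1 CPM in treated B6 replicates 2 and 3, and at 31.1 CPM in replicate 1, where Irf1, Irf7 and Irf9 were also lowest of their group.

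Irf2, the competitor of IRF1, had 53.7, 49.6 and 53.6 CPM in control set 1 and 41.3, 40.8 and 38.7 CPM in control set 2. The sets did not overlap, as in 2643 of 12370 genes (21.4%), and the log2 FC was -0.38 (SE 0.075, adjusted p = 0.0568). The other 3 groups lay between 33.8 and 52.2 CPM and overlapped one another. The ratio of Irf2 to Irf1 CPM was 0.355 to 0.585 in the 6 mutant libraries and 0.151 to 0.373 in the 9 B6 libraries, with a small overlap. It was lowest in treated B6 replicates 2 and 3, at 0.151 and 0.188. Irf1 is the disrupted gene, so a higher ratio in the mutants reads out the design. Irf2 itself had a log2 FC of 0.055 between genotypes over both states (edgeR, adjusted p = 0.676).

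**Figure D3:**
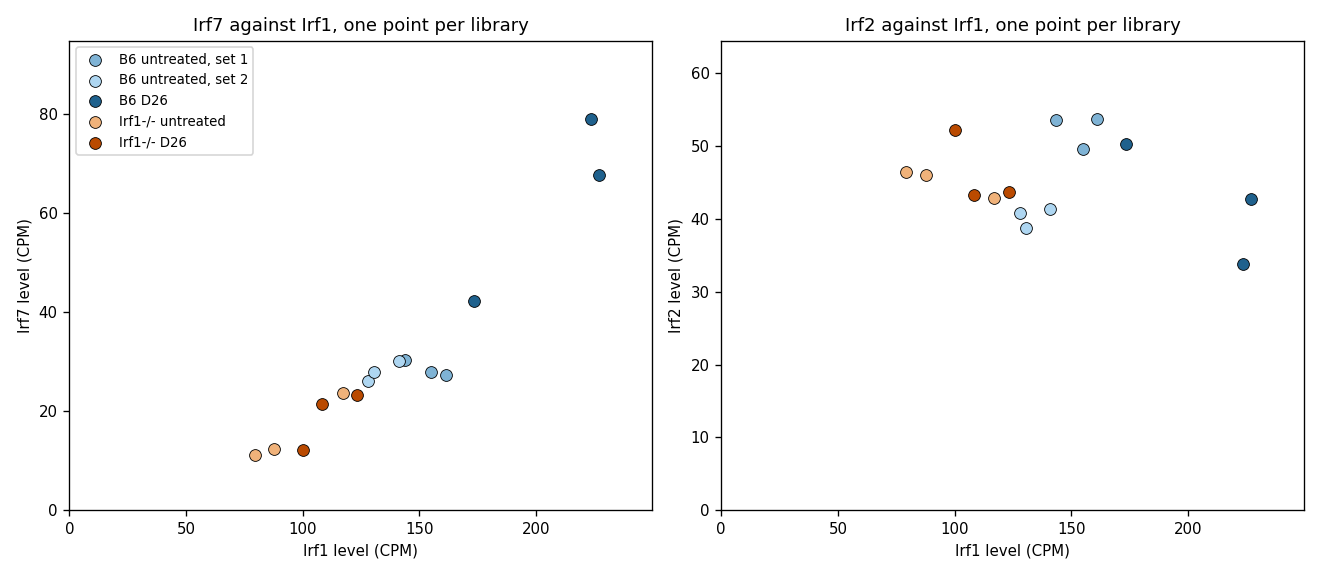
Level of Irf7 (left) and Irf2 (right) against Irf1 in each of 15 libraries, in CPM on linear axes from 0. In the left panel the 6 mutant libraries lie at the lower left and the 3 treated B6 libraries (42.3 to 79.0 CPM of Irf7) at the upper right. In the right panel Irf2 ranges from 33.8 to 53.7 CPM without separating the genotypes.

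Irf3, the constitutive member activated by nucleic acid sensors, varied little. Irf3 ranged from 50.5 to 61.9 CPM over all 15 libraries, and its log2 FC farthest from 0 among the 8 contrasts was -0.17 (treated mice, adjusted p = 0.299).

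Irf4, which directs plasma cell differentiation and acts in T cells and macrophages, differed most between the untreated B6 sets. Control set 1 had 25.7, 19.2 and 14.6 CPM and control set 2 had 7.71, 11.6 and 9.06 CPM. These did not overlap, as in 21.4% of 12370 genes. Treated B6 colons had 16.3, 22.9 and 14.7 CPM, untreated mutants 14.0, 18.2 and 13.9 CPM and treated mutants 18.5, 14.5 and 9.81 CPM. Between the control sets edgeR called 0 of 8 members beside 8 of 12417 genes (0.0644%), 3 members (Irf1, Irf2 and Irf4) had an unadjusted p under 0.05 beside 2134 genes, and DESeq2 called 1, Irf4. The log2 FC of Irf4, set 2 against set 1, was -1.07 (SE 0.21, adjusted p = 0.0568). Its direction in untreated mutants depended on the controls used, 0.70 (SE 0.17, adjusted p = 0.102) against set 2 and -0.37 (adjusted p = 0.301) against set 1. B and plasma cell markers, 7 of 10 measured, moved with it, at a summed 787 to 829 CPM in control set 1 and 391 to 435 CPM in set 2, and their part in the Irf4 value was not tested.

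For each member the genes with the most similar log2 level over the 15 libraries were read out as a description. The nearest gene to Irf1 was Oasl2 (Pearson r = 0.99), an interferon-inducible gene, followed by Irf7 (0.97), and the nearest to Irf7 were Oasl2 (0.97), Irf1 and the class I antigen gene H2-K1 (0.94). After subtracting group means, Irf1 and Irf7 still had r of 0.89, and Irf1 and Oasl2 of 0.93. Irf5 lay nearest to Map4k2, Ncf1 and Myo1f (0.95, 0.94 and 0.94), of which Ncf1 encodes a subunit of the phagocyte oxidase. Irf8 lay nearest to Ccnd3, H2-DMa and Arap1, and Irf4 to Lax1, Izumo4 and Igj, the joining chain of antibodies (0.82). The nearest genes to Irf9 were Duox2 and Duoxa2 (0.86 and 0.85), the epithelial oxidase and its maturation factor. The nearest genes to Irf2 and Irf3 were Sema4g (0.92) and Mzt2 (0.91). Among pairs of members, Irf5 and Irf8 had r of 0.77, and no pair but Irf1 with Irf7 was closer.

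The genes around the family were taken from lists written by role, with earlier results of these data known. Upstream of the members, 0 of 9 interferon receptors and kinases and 0 of 6 STAT partners and restraints were called by edgeR between genotypes over both states. The members with the smallest p were Ifngr1 (log2 FC -0.15, adjusted p = 0.101) and Ptpn2 (0.16, adjusted p = 0.0555), and Stat2 stood at -0.16. Of the 15 listed ligands, Il15 and Il18 alone were measured, and the interferon genes themselves were not analysed here. Beside 0.889% of all genes called between genotypes, 3 of 20 sensors and adaptors that activate IRFs were lower, the cytosolic RNA sensors Ifih1 (-0.70, adjusted p = 0.000109), Ddx58 (-0.73, adjusted p = 0.000402) and Dhx58 (-0.67, adjusted p = 0.00515), all of which are themselves interferon-inducible. Of 12 IRF cofactors 0 were called.

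Downstream, the list of IRF1 targets held 21 measured genes, of which 10 were lower and 0 higher, beside the 0.889% of all genes called, with a median log2 FC of -0.61 beside 0.01 over all genes. As the lists were chosen with earlier results of these data known, their shares are descriptions and not independent tests. The smallest p belonged to Psmb10 (-1.97, adjusted p = 7.57e-11), an immunoproteasome subunit, Tapbp (-1.20), which loads peptide on class I molecules, and the proteasome activators Psme2 (-1.12) and Psme1 (-0.97). Of 16 measured ISGF3 targets 6 were lower, with a median of -0.37, and Dhx58 is counted here and among the sensors. Among them were Ddx60 (-2.82, adjusted p = 3.59e-06), Oasl2 (-1.99, adjusted p = 7.41e-05) and Parp14 (-1.34, adjusted p = 1.17e-06), while Irf9 and Stat2 were not called. The summed level of the IRF1 targets was 1278 to 1519 CPM in untreated and 1251 to 1489 CPM in treated mutants, against 1833 to 1960 CPM in untreated and 2163 to 3340 CPM in treated B6 colons.

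The lists were read in the same way for treated against untreated mice over both genotypes, where 1.64% of all genes were called. Of the STAT partners and restraints 1 of 6 was higher, Socs3, an inhibitor of cytokine signalling (log2 FC 1.18, adjusted p = 0.000119). Of IRF1 targets 1 of 21 was higher, Psmb8 (0.73, adjusted p = 0.00431), and of ISGF3 targets 2 of 16, Oasl2 (1.05, adjusted p = 0.00448) and Oasl1 (0.68, adjusted p = 0.00323). None of the lists of receptors, activators and cofactors held a called gene, at medians of 0.07, 0.07 and 0.17 beside -0.000622 over all genes. Ifnar2, a chain of the type I interferon receptor, had 0.41 (adjusted p = 0.00981) and Tmem173, which encodes STING, 0.49 (adjusted p = 0.00126), both below the required fold.

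**Figure D4:**
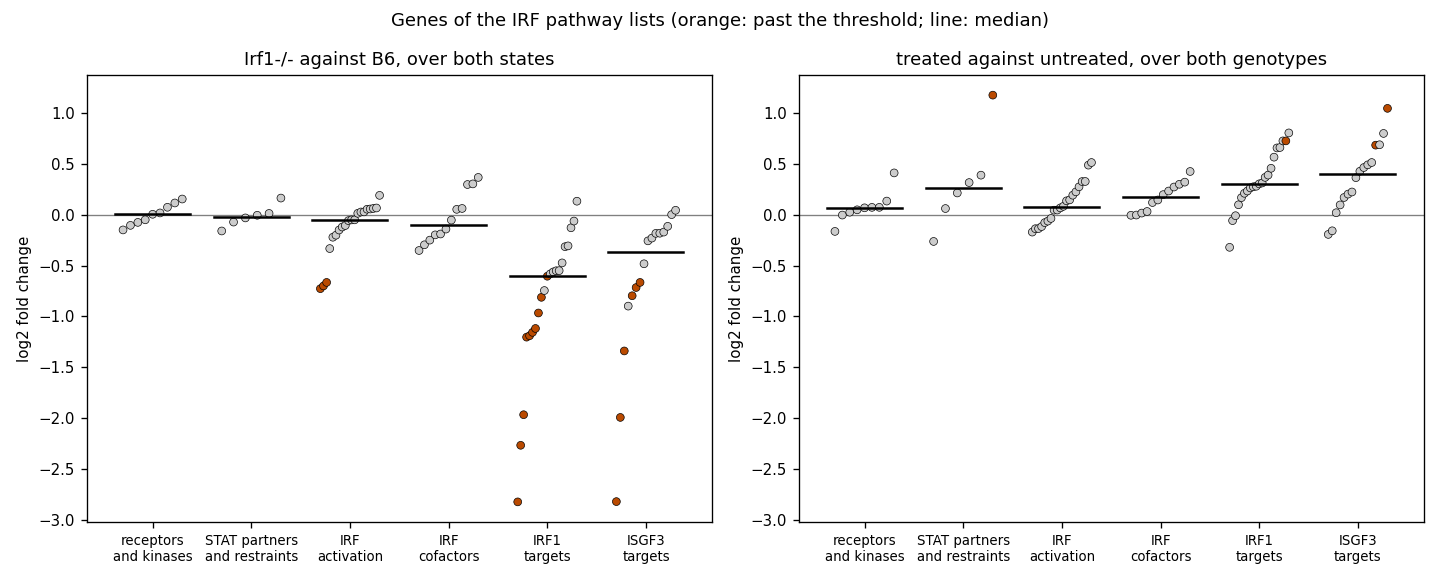
Log2 fold change of each measured gene on 6 lists around the IRF family, for genotype (left) and treatment (right), each over all 15 libraries. Each point is a gene, orange points passed the threshold and the line is the list median. Between genotypes the called genes lie in IRF activation (3), IRF1 targets (10) and ISGF3 targets (6), all below 0, with Dhx58 in the first and the last of these lists.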

How the data were processed

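Stranded libraries of rRNA-depleted RNA from distal colon were sequenced with paired 50 bp reads. The submitters' processing notes name TopHat2 2.0.9, Bowtie 1.0.0, featureCounts, edgeR and mm9. The values deposited by the authors are read counts for each gene, after a filter at 5 CPM. Library totals were close to each other, and whether the counts had been brought to a like depth was not tested. Every gene kept reached at least 5.01 CPM (of the library total) in at least 3 libraries of its table. Their 36 columns of CPM and the columns of fold changes and p-values were not used. The untreated Irf1-/- libraries, repeated in a second table with the same counts, entered each fit once. The labels do not state that the libraries of a group are separate mice, and p-values measure the spread between these libraries.

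Counts of the genes present in all tables of a comparison were scaled by TMM and fitted with the quasi-likelihood model of edgeR 4.0.16 (R 4.3.3), with Benjamini-Hochberg adjustment over all genes tested. The code was tested on simulated data. Levels are CPM over the 12370 shared genes. Exon length and GC content (12140 genes) came from GENCODE M21, on GRCm38. A prior of 0.5 CPM was added for correlations of log2 levels. Of the Irf genes 8 were named, list genes were the up to 4 with the smallest p in a list and comparison or those called, and the 3 nearest genes were read out for each member. The called macrophage markers were named after their values were seen. Members and lists were chosen with earlier results of these data known. Some genes are not reported here.

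Alternatives were RLE size factors, DESeq2 1.42.0, a filter of 10 CPM, all 15 libraries in a fit, the replicate number as a block, an adjusted p under 0.05, a lowess correction for GC content (span 0.3), the block with that correction, other control sets and each mouse left out. Log2 Xist as a covariate was added after seeing the data.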

Additional observations from a re-analysis of the deposited data

How the results depend on the processing

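The counts of called members of the genotype contrast over both states (2), of treated against untreated mutants (0) and of the difference of the responses (0) were the same under all alternatives run. DESeq2 called 1 member in untreated mutants against control set 2, 1 in treated against untreated B6, 2 in treated mutants against treated B6, 1 between the control sets and 2 for treatment over both genotypes. An adjusted p under 0.05 gave 1 member in treated against untreated B6, 2 in treated mutants against treated B6 and 2 for treatment over both genotypes. Other controls gave 1 in untreated mutants (control set 1), 1 in treated B6 (both sets) and 0 for treatment over both genotypes (control set 1 alone), and all 15 libraries in a fit gave 2 in treated mutants against treated B6. For treatment over both genotypes the GC correction gave 0 and log2 Xist as a covariate 0. With 1 mouse left out the counts ranged from 0 to 2 in untreated mutants, from 0 to 1 in treated B6, from 0 to 2 in treated mutants against treated B6 and from 0 to 2 for treatment over both genotypes. Shares of all genes called are not given for the alternatives, so these counts of members have no background beside them.

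Replicate numbers did not pair the libraries: correlations of same-numbered deviations ran from -0.253 to 0.248. With the replicate block 2 members were called for treatment over both genotypes, and with the block and the GC correction 0, and the block changed no other count. Among values with an unadjusted p under 0.05 and those of Irf1 and Irf7, reversed signs were those of Irf2 in untreated mutants against control set 1 (-0.22) and both sets (-0.042), Irf4 there against set 1 (-0.37), Irf2 in treated B6 against control set 2 (0.083), and Irf7 between the control sets, from -0.077 to 0.034 with 1 mouse left out. Over all 64 values (8 members in 8 contrasts) 25 turned sign in at least 1 alternative, 0 of them called there. Of the 25, 3 were at least 0.2 in size as reported. Among these 3 was Irf2 in the difference of the responses (0.35, and down to -0.027 in the alternative fits). The others included Irf4 in treated B6 (-0.13, and 0.94 against control set 2), Irf5 in untreated mutants (0.14, and -0.22 against control set 1), and Irf9 and Irf2 among treated mice (0.085 and 0.12, and -0.070 and -0.013 with 1 mouse left out). The cause was not tested. The standard error of the difference between the Irf7 responses was 0.42 log2 units, which limits what that contrast can show.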
